A study of Homo sapiens with 6 samples.

Results

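The genes described here are 38 that encode enzymes, or core subunits of enzymes, that add methyl groups to lysines of histones or remove them, together with SET-domain relatives. They were taken by symbol from the table of 26372 gene symbols, and all 38 were found, each above the minimum for testing, a 6-library mean of 1 FPKM. FPKM is the number of fragments per kilobase of transcript, scaled to library size. By lysine and role they are 18 writers, 17 erasers and 3 SET-domain proteins (KMT2E, SETD3 and SETD5) that were given no lysine. KDM4A, KDM4B and KDM4C act on both H3K9 and H3K36 and are counted under each lysine.

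The cells were SH-SY5Y, a human neuroblastoma line. The shTDP43 group carried a lentiviral short hairpin RNA against TDP-43, the nucleic-acid-binding product of TARDBP, and the shNC group carried a control hairpin in the same pLVX-U6 vector. The labels of both groups carry the same protocol of lentiviral infection, puromycin selection at 2 µg/mL for 2 weeks and maintenance at 1 µg/mL, worded for the knockdown cells. The labels name 1 hairpin against TDP-43 and no rescue, and the cells are a selected population, so an effect of the hairpin sequence cannot be told apart from loss of TDP-43. Each group had 3 libraries of poly(A) RNA. The labels do not say whether these came from separate cultures, so p-values measure only the spread between libraries, which may be technical. In bulk RNA, fewer cells of a type and less RNA per cell cannot be told apart.

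TARDBP (chr1:11012654-11030528) was listed at 35.99, 33.1 and 34.8 FPKM in the shTDP43 libraries, against 56.1, 56.2 and 56.6 FPKM in the shNC libraries. The groups did not overlap, and the shTDP43 mean was 61.5% of the shNC mean (log2 difference −0.69, SE 0.03, adjusted p = 2.84e-06 by limma; exact permutation p = 0.1, the smallest that 3 against 3 libraries allow). Of 9 markers of neuroblastoma cells, 8 had a mean of at least 1 FPKM, and the summed level of the list was 1700 to 1740 FPKM in shTDP43 libraries and 1490 to 1500 FPKM in shNC libraries. Among these 8 markers 5 rose (62.5%; 3 or 4 without 1 library) and 3 fell (37.5%), against 18.5% and 19.6% of all tested genes. CHGA, a secretory granule protein, had means of 520 FPKM in shTDP43 and 296 FPKM in shNC libraries, 175% of shNC. This difference is about as large as that of the summed level, so the sum shows no common rise of the list. The transcription factors PHOX2A and HAND2 were at 80.1% and 94.9%. Markers of Schwann cells summed to 3.05 to 3.55 FPKM in shTDP43 libraries and 3.55 to 4.1 FPKM in shNC libraries, with 1 of 6 above 1 FPKM (S100B, 51.5% of shNC). Markers of immune, endothelial and epithelial cells summed to 2.53 to 3.74 FPKM in shTDP43 libraries and 4.24 to 5.3 FPKM in shNC libraries. KRT18 and EPCAM were above 1 FPKM among these 11 markers, KRT18 fell to 16.96% of shNC, and CD3E was at 0. Between 17945 and 18025 genes were above 0 in an shTDP43 library and between 18217 and 18334 in an shNC library. The small nucleolar RNA SNORD3A stood at 8551 FPKM in shTDP43 library 3 and 11540 FPKM in shNC library 1, against 137200 to 552700 FPKM in the others, so the counts of calls, the medians and the tests of the 38 genes were also computed without those 2 libraries. The part of these differences in the results below was not tested.

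Methylation of a histone lysine is set by methyltransferases, mostly of the SET-domain family, and removed by demethylases of the LSD1 or Jumonji families. Methylated H3K4 marks promoters and enhancers, H3K36 and H3K79 methylation accompany transcribed gene bodies, and H3K9 and H3K27 methylation are associated with silent chromatin. Many of these enzymes are dosage sensitive, and changes in 1 copy of several of them cause neurodevelopmental disorders. TDP-43 binds UG-rich RNA, often in long introns and 3′ untranslated regions.

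Because TDP-43 recognises repeats of UG, the transcripts of the 38 genes were searched for unbroken runs of alternating T and G. In the longest protein-coding transcript of each gene (GENCODE 29), 9 of 38 (23.7%) held a run of at least 10 letters, against 9.35% of 11904 tested protein-coding genes. The 38 transcripts were longer, with a median of 6820 bases against 3492, so more runs can fall in them. The following stretches of 30 bases from 3′ untranslated regions are shown as DNA with the run in capitals, because KDM4A and ASH1L hold the longest runs among the 38 genes and because KDM2A and WHSC1 moved in opposite directions. Their positions in GRCh38 are chr1:43704763-43704792 on the plus strand for KDM4A, chr1:155336397-155336426 on the minus strand for ASH1L, chr11:67256165-67256194 on the plus strand for KDM2A and chr4:1943544-1943573 on the plus strand for WHSC1.
KDM4A: atttataTGTGTGTGTGTGTGTGcgtgcgt
ASH1L: gccaagtTGTGTGTGTGTGTGTatatatat
KDM2A: cacgtgcctcTGTGTGTGTGgctgagtgta
WHSC1: acactggattTGTGTGTGTGgcgctttagg
Of the 9 genes with such a run, 4 rose (WHSC1L1, ASH1L, KDM2A and KDM2B) and WHSC1 fell. Among all 38 genes 19 rose and 4 fell, as did 18.5% and 19.6% of all tested genes. SETD7, KDM5C, KDM4A and NSD1 did not pass the test, with log2 differences of 0.02, 0.05, 0.06 and 0.08. WHSC1 was thus the only one of the 9 below 0, and 32 of the 38 differences were positive. A match is a description of the letters and shows no binding.

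Promoters of 35 of the 38 genes were in the RefSeq table, as 52 windows of 250 bases before to 50 bases after a start. DOT1L, SETD1B and WHSC1L1 had no entry. At least 20 CG dinucleotides lay in 41 of 52 windows (78.8%), against 41.2% of all 35116 windows, and the median was 30 against 14. The set of all windows, here and for the motifs below, was not limited to tested genes, whereas all 38 genes were tested. The 250 bases before the start are shown for KMT2D, which had the largest difference on the log2(FPKM + 1) scale, and WHSC1, a gene that fell, with each CG in capitals (RefSeq, GRCh38.p14, chr12:49060795-49061044 on the minus strand and chr4:1871143-1871392 on the plus strand).
KMT2D: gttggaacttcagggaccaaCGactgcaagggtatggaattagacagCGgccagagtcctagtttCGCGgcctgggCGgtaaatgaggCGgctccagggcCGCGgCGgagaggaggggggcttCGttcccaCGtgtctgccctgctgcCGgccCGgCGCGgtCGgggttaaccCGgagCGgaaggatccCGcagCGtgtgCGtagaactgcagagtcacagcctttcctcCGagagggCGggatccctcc
WHSC1: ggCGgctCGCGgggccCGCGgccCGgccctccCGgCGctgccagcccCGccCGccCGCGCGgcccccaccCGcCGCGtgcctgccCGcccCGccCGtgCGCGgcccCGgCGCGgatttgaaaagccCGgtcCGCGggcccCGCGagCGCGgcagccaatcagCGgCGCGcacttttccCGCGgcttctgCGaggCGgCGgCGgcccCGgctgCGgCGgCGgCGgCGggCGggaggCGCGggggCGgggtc
The KMT2D sequence holds 23 CG dinucleotides at 65.6% GC, and that of WHSC1 holds 50 at 86.0% GC, so the promoters of both genes are rich in CG. Exact matches on either strand to the letters AAGATGGC, the core of the YY1 motif, were in 11.5% of the windows (KDM2A, KDM5C, KMT2B, PHF8 and PRDM2) and in 2.89% of all windows. CCGGAAG, an ETS motif, was in 5.77% against 10.3%, and TGACGTCA, the CREB motif, was in 1.92% against 1.85%.

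Of the 38 genes, 19 rose (50%) and 4 fell (10.5%) in shTDP43 cells, and 15 did not pass the test. Over all 13263 tested genes 38.1% passed it, 18.5% higher and 19.6% lower (limma on log2(FPKM + 1), adjusted p under 0.05). All 3 shTDP43 libraries were above all 3 shNC libraries for 26 genes (68.4%) and below them for 5, while 7 overlapped. The corresponding shares over all tested genes were 50.7% without overlap, 25.3% above and 25.4% below. The changes were small, between 86.2% and 125% of the shNC mean. The median log2 difference was 0.10, against 0.00 over all tested genes, and the median size without its sign was 0.108, against 0.117. Summed levels were 949 ± 6.74 FPKM in shTDP43 and 907 ± 8.42 FPKM in shNC cells (SD, n = 3 each).

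The number of genes that rose depended on single libraries. It was 9 without shTDP43 library 2, 11 without shTDP43 library 3, 12 without shNC library 2 or shNC library 3, 13 without shNC library 1 and 15 without shTDP43 library 1. The share of all tested genes called higher was then 14.5% to 15.8%. Without both libraries low in SNORD3A the count was 6, with 11.8% of all tested genes, and 0 genes fell. KMT2C, KMT2D, SETD1B, KDM5A and KDM5B were called higher in all 16 alternatives, and KDM6B, WHSC1L1, ASH1L and KMT2E in every fit without 1 library. PHF2 and WHSC1 were called lower in every fit without 1 library.

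**Figure D1:**
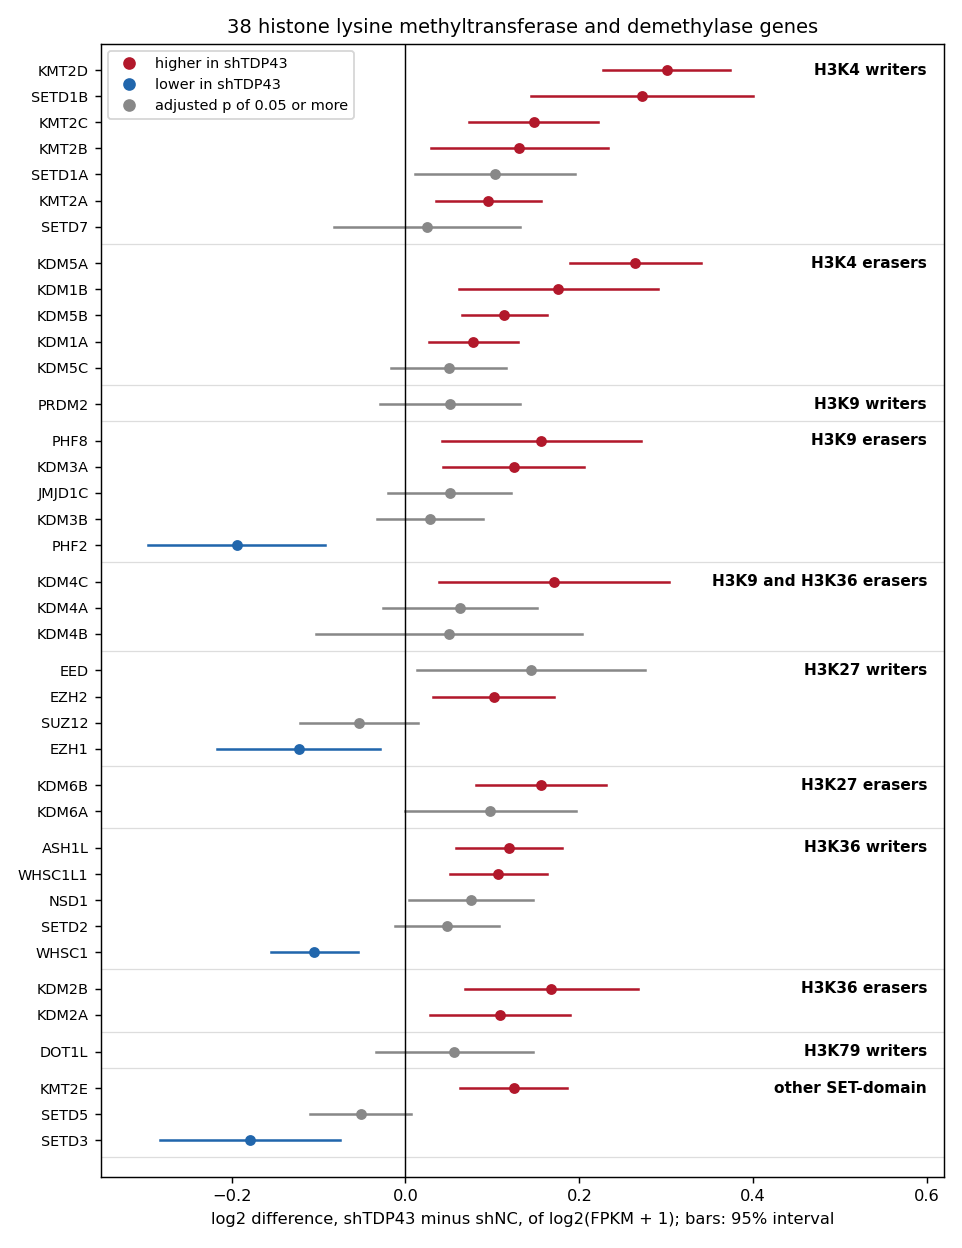
Log2 difference of each of the 38 genes, shTDP43 minus shNC on the log2(FPKM + 1) scale, with its 95% interval, by lysine and role. Red marks the 19 genes that rose, blue the 4 that fell (PHF2, EZH1, WHSC1 and SETD3) and grey the 15 that did not pass the test.

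**Figure D2:**
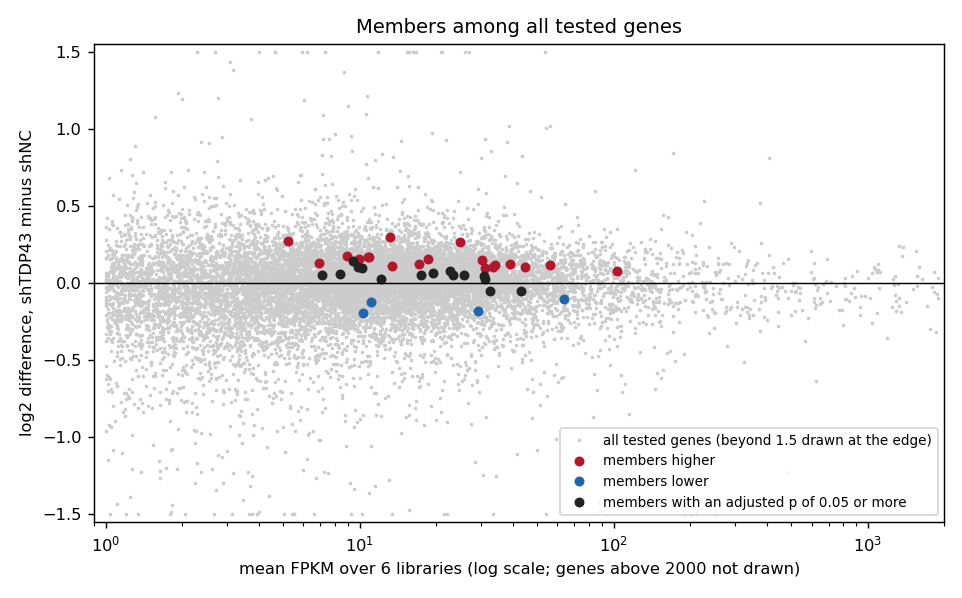
Log2 difference against mean FPKM (log axis) for all tested genes in grey and the 38 genes in colour. The 38 genes lie between −0.19 and 0.30, inside the spread of genes of like level, and 32 of them are above 0.

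Writers of H3K4 methylation gave the largest rises. Of 7 genes, 5 rose (71.4%) and none fell, against 18.5% and 19.6% of all tested genes. Their median log2 difference was 0.13. KMT2D (chr12:49018978-49060794), which places monomethyl marks on enhancers, was listed at 14.7, 14.6 and 14.7 FPKM in shTDP43, against 11.8, 11.7 and 11.6 FPKM in shNC libraries. The libraries of a group lay within 0.2 FPKM of each other and the groups were far apart, at 125% of shNC (log2 difference 0.30, SE 0.03, adjusted p = 0.000236). Its paralogue KMT2C (chr7:152134925-152436003) stood at 31.6, 32.5 and 31.7 FPKM in shTDP43, against 29.8, 27.9 and 28.5 FPKM in shNC libraries, which did not overlap. That is 111% of shNC (0.15, SE 0.03, adjusted p = 0.00821). SETD1B (chr12:121790155-121832656), the catalytic subunit of a complex that trimethylates H3K4 at promoters, was the lowest of the 38 genes at 6.01, 5.96 and 5.52 FPKM in shTDP43, against 4.78, 4.76 and 4.42 FPKM in shNC libraries. All shTDP43 libraries were higher, at 125% of shNC (0.27, SE 0.06, adjusted p = 0.00607).

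KMT2A and KMT2B, the MLL1-type methyltransferases that bind menin, reached 107% and 111% of shNC (adjusted p = 0.0216 and 0.0478). Their calls were less secure. KMT2A lost its call without shTDP43 library 2 or 3 or shNC library 2 or 3 (adjusted p up to 0.0693), and KMT2B lost it whichever of the 6 libraries was left out (0.0706 to 0.132). SETD1A, the paralogue of SETD1B, was at 108% with libraries that did not overlap, yet did not pass (95% interval of the log2 difference 0.01 to 0.19, adjusted p = 0.0745). SETD7, which monomethylates H3K4 in vitro and many other proteins, was at 102% (−0.08 to 0.13, adjusted p = 0.714) with overlapping groups. Thus the members of the KMT2C and KMT2D pair, and SETD1B of the SETD1 pair, passed in every fit, while the count for the class without 1 library was 3 or 4 of 7.

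Partner proteins of these complexes were counted from a list of 14 COMPASS and MLL subunits. Of these, 5 rose (35.7%) and none fell, against 18.5% and 19.6% of all tested genes. Without 1 library there were 4 or 5 rises and 0 or 1 falls. Of the 14 differences 7 were positive, with a median log2 difference of 0.0086. PAXIP1, a subunit of the KMT2C and KMT2D complexes, was at 9.04, 9.21 and 8.98 FPKM in shTDP43, against 5.77, 5.87 and 5.85 FPKM in shNC libraries. This was the largest difference in the list, 156% of shNC (0.56, SE 0.04, adjusted p = 3.08e-05), with the groups far apart. CXXC1, the CpG-binding subunit of the SETD1 complexes, reached 123% (adjusted p = 0.00124) and MEN1, menin, 121% (adjusted p = 0.00389). HCFC1 and WDR5 reached 113% and 111%. PSIP1, which tethers menin complexes to chromatin and was the highest in the list, was at 97.0% (adjusted p = 0.193). Not all subunits of a complex moved alike, as NCOA6 and PAGR1, partners of KMT2C and KMT2D, were at 98.2% and 92.8% and did not pass.

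Erasers of H3K4 methylation also rose, with a median log2 difference of 0.11. Of 5 genes, 4 rose and none fell, against 18.5% and 19.6% of all tested genes. The count of rises was 2 without shTDP43 library 2, shTDP43 library 3 or shNC library 1, and 2 without both libraries low in SNORD3A. All 5 had every shTDP43 library above every shNC library, against 25.3% of all tested genes. KDM5A (chr12:280057-389320), a Jumonji demethylase of trimethylated H3K4, was listed at 26.2, 27.2 and 28.0 FPKM in shTDP43, against 22.5, 22.7 and 22.0 FPKM in shNC libraries. This is 121% of shNC (0.26, SE 0.03, adjusted p = 0.000518), more than the spread within either group. KDM5B (chr1:202724495-202808421), its paralogue, was listed at 58.3, 58.5 and 57.8 FPKM in shTDP43, against 53.9, 53.7 and 53.6 FPKM in shNC libraries. The groups were tight and apart, at 108% of shNC (0.11, SE 0.02, adjusted p = 0.00386). KDM5C was at 104% (95% interval −0.02 to 0.12, adjusted p = 0.205). The ratio of KDM5B to KDM5A, chosen after the values were seen, was 2.15 ± 0.0811 in shTDP43 and 2.40 ± 0.0301 in shNC libraries (SD, n = 3 each; exact permutation p = 0.1).

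KDM1A, the amine oxidase LSD1, was the most highly expressed of the 38 genes, at 105 ± 1.12 FPKM in shTDP43 and 99.8 ± 1.65 FPKM in shNC (SD, n = 3 each). That is 106% of shNC (0.08, adjusted p = 0.0257), and the call was lost without shTDP43 library 2 or 3 or shNC library 1 or 3 (adjusted p up to 0.0792). KDM1B, LSD2, was at 114% (0.18, adjusted p = 0.0245), and was lost without shTDP43 library 2 or 3 or shNC library 1 (up to 0.065). In a list of 12 partners of these 2 enzymes, 6 rose and 1 fell, against 18.5% and 19.6% of all tested genes. RCOR3, a CoREST scaffold, was at 26.3, 26.8 and 25.2 FPKM in shTDP43, against 19.8, 19.9 and 20.6 FPKM in shNC libraries, without overlap and at 130% of shNC (adjusted p = 0.000115). GLYR1, a cofactor of KDM1B, reached 127% (adjusted p = 0.000455) and the scaffold RCOR2 119% (adjusted p = 0.00556). GSE1 fell to 95.1% (adjusted p = 0.0391). The count of 6 was 3 to 5 without 1 library, with 3 when shTDP43 library 2 was left out, and GSE1 lost its call in each of those fits.

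**Figure D3:**
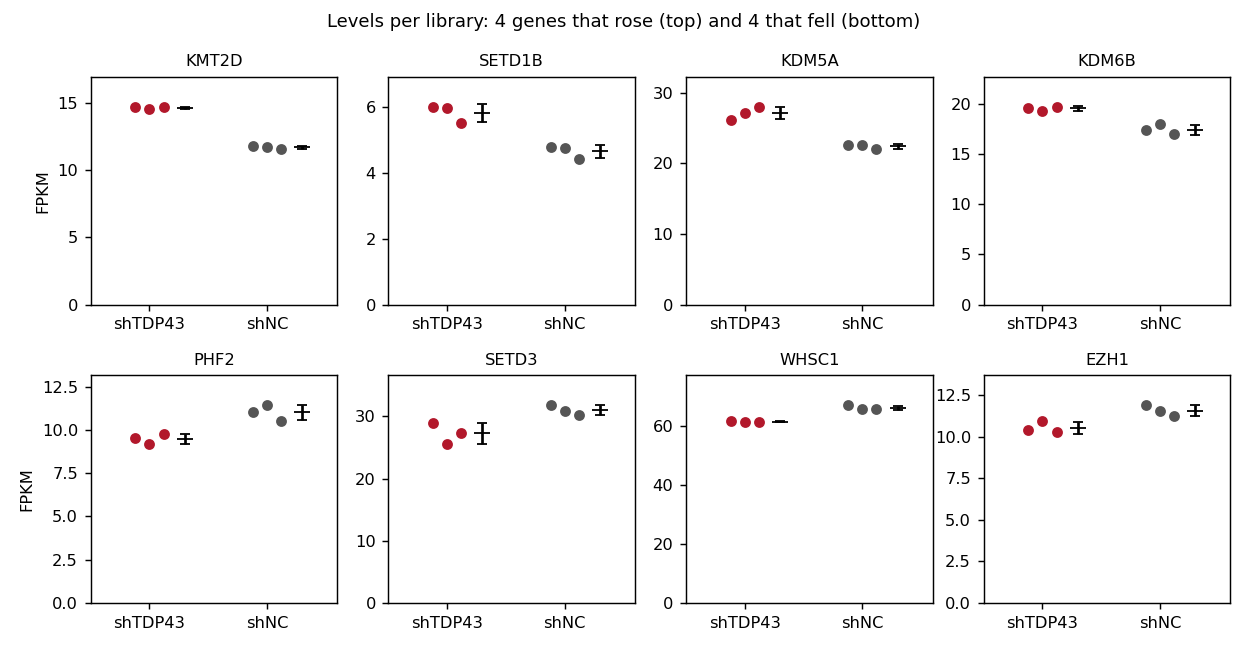
FPKM of 4 genes that rose (KMT2D, SETD1B, KDM5A and KDM6B, top) and 4 that fell (PHF2, SETD3, WHSC1 and EZH1, bottom), 1 point per library, with the mean and SD in black. Axes start at 0, and in each panel the 3 shTDP43 points lie on 1 side of the 3 shNC points.

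For H3K9 methylation, PRDM2, an H3K9 methyltransferase and tumour suppressor, was the only writer in the set, at 104% (adjusted p = 0.283). Of 8 erasers, with a median log2 difference of 0.06, 3 rose (37.5%) and 1 fell (12.5%), against 18.5% and 19.6% of all tested genes. PHF2 (chr9:93576584-93679587), a Jumonji demethylase of dimethylated H3K9, was at 9.56, 9.18 and 9.76 FPKM in shTDP43, against 11.1, 11.4 and 10.5 FPKM in shNC libraries. It fell to 86.2% (−0.19, SE 0.04, adjusted p = 0.00999), the largest fall among the 38 genes. Without both libraries low in SNORD3A the adjusted p was 0.0511.

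Its relative PHF8, which removes dimethyl marks from H3K9 and monomethyl marks from H4K20, rose to 113% (0.16, adjusted p = 0.0382). KDM3A, which removes mono- and dimethyl marks from H3K9, rose to 109.6% (0.12, adjusted p = 0.0241), and KDM4C, which removes trimethyl marks from H3K9 and H3K36, to 114% (0.17, adjusted p = 0.0469). All 3 calls were lost when single libraries were left out. PHF8 and KDM4C each kept the call only without shNC library 1 (up to 0.115 and 0.139 otherwise), and KDM3A only without shTDP43 library 1 or shNC library 3 (up to 0.0791). The class count therefore ran between 0 and 2 of 8. KDM3B, JMJD1C, KDM4A and KDM4B were at 102%, 104%, 105% and 104%, and none passed. KDM4B stood at 7.02, 7.12 and 7.51 FPKM in shTDP43, against 7.69, 6.33 and 6.84 FPKM in shNC libraries. The shTDP43 values lie within the range of shNC.

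Among genes for H3K27 methylation, the catalytic subunits of PRC2, the complex that trimethylates H3K27, moved in opposite directions. EZH2 (chr7:148807383-148884291), the main enzyme of dividing cells, was listed at 33.3, 35.0 and 35.3 FPKM in shTDP43, against 32.7, 31.9 and 31.7 FPKM in shNC libraries. It rose to 108% (0.10, SE 0.03, adjusted p = 0.0305), without overlap though shTDP43 library 1 lay close to shNC library 1. EZH1 (chr17:42700275-42745040), which is more abundant in resting cells, was listed at 10.4, 10.9 and 10.3 FPKM in shTDP43, against 11.9, 11.6 and 11.2 FPKM in shNC libraries. It fell to 91.1% (−0.12, SE 0.04, adjusted p = 0.0446), with the groups next to each other. Both calls depended on single libraries: EZH2 lost its call without shTDP43 library 2 or 3 or shNC library 2 or 3 (up to 0.0941), and EZH1 lost it without each library except shTDP43 library 2 (up to 0.134). The ratio of EZH2 to EZH1, chosen after the values were seen, was 3.21, 3.19 and 3.42 in shTDP43, against 2.75, 2.76 and 2.82 in shNC libraries (exact permutation p = 0.1). All 3 shTDP43 ratios were higher. This follows from EZH2 being above and EZH1 below shNC in every shTDP43 library, so the ratio and its p add no support.

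EED, which binds trimethylated H3K27, was at 112% (95% interval 0.01 to 0.28, adjusted p = 0.0783), and passed without shTDP43 library 3 (0.0274). SUZ12, the scaffold, was at 96.2% (adjusted p = 0.19). Its value is uncertain, because the near-identical partial copy SUZ12P1 was listed at 13.4 to 20.1 FPKM and the sources used here do not give how shared reads were assigned. Of 10 further PRC2 partners 3 rose and 2 fell, against 18.5% and 19.6% of all tested genes. Of the 10 differences 4 were positive, with a median log2 difference of −0.039. MTF2, a Polycomb-like accessory protein, rose to 117% (adjusted p = 0.0038), and LCOR and RBBP4 to 109% and 108%. LCORL, which encodes an accessory protein of the PALI type, fell to 90.6% (adjusted p = 0.0232) and the histone chaperone RBBP7 to 92.6% (adjusted p = 0.00693). Only 1 gene fell without shTDP43 library 1, shNC library 1 or shNC library 3, and without both libraries low in SNORD3A the counts were 1 rise and 0 falls.

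The H3K27 demethylases KDM6A and KDM6B were both above shNC in every library, as were 25.3% of all tested genes. KDM6B (chr17:7834217-7854796), induced in many cell types on differentiation or stimulation, was at 19.6, 19.3 and 19.7 FPKM in shTDP43, against 17.4, 18.0 and 16.997 FPKM in shNC libraries. It rose to 112% (0.16, SE 0.03, adjusted p = 0.00658) and held without each single library. Without both libraries low in SNORD3A its adjusted p was 0.0623. KDM6A, an X-linked subunit of the KMT2C and KMT2D complexes, was at 108% and did not pass (0.10, adjusted p = 0.107).

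For H3K36, 2 of 5 writers rose (40.0%) and 1 fell (20.0%), against 18.5% and 19.6% of all tested genes. The groups did not overlap for any of the 5, against 50.7% without overlap over all tested genes. WHSC1 (chr4:1871393-1982192), also named NSD2, which dimethylates H3K36, was listed at 61.8, 61.4 and 61.5 FPKM in shTDP43, against 67.2, 65.8 and 65.8 FPKM in shNC libraries. It fell to 92.9% (−0.10, SE 0.02, adjusted p = 0.00646). Its paralogue WHSC1L1 (chr8:38269704-38382271), also named NSD3, was listed at 45.8, 47.2 and 46.2 FPKM in shTDP43, against 42.7, 43.5 and 42.9 FPKM in shNC libraries. It rose to 108% (0.11, adjusted p = 0.00958). The ratio of WHSC1 to WHSC1L1, chosen after the values were seen, was 1.33 ± 0.025 in shTDP43 and 1.54 ± 0.0301 in shNC libraries (SD, n = 3 each; exact permutation p = 0.1). Its separation follows from the opposite moves of both genes, each without overlap, so the ratio and its p add no support. Without both libraries low in SNORD3A the adjusted p was 0.0612 for WHSC1 and 0.07 for WHSC1L1.

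ASH1L (chr1:155335268-155563202), a Trithorax-group H3K36 dimethyltransferase, was at 34.5, 35.6 and 35.9 FPKM in shTDP43, against 32.7, 32.1 and 32.7 FPKM in shNC libraries. It rose to 109% (0.12, adjusted p = 0.00922), without overlap. Its adjusted p was 0.0678 without both libraries low in SNORD3A. NSD1 was at 106% (adjusted p = 0.0894) and SETD2, the enzyme of H3K36 trimethylation, at 103% (adjusted p = 0.181). Of the 5 erasers of H3K36, the KDM4 genes are given above. KDM2A and KDM2B, which recruit demethylase activity to unmethylated CpG islands, rose to 108% and 113% (adjusted p = 0.0393 and 0.017). KDM2A lost its call whichever of the 6 libraries was left out (0.0525 to 0.119), and KDM2B without shTDP43 library 2 or shNC library 1 (up to 0.0532), so the count of 3 for H3K36 erasers was 0 or 1 when 1 library was left out.

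DOT1L, the enzyme of H3K79 methylation, was at 104% (adjusted p = 0.296) although all 3 shTDP43 libraries were above shNC. Of 6 DOT1L partners, 1 rose (16.7%) and 1 fell (16.7%), against 18.5% and 19.6% of all tested genes. MLLT10 rose to 113% (adjusted p = 0.0171), and was not called without shTDP43 library 1 or 3 or shNC library 3. AFF4, a scaffold of the super elongation complex, fell to 88.6% (adjusted p = 0.00211).

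Among the SET-domain proteins without an assigned lysine, KMT2E (chr7:105014205-105115019), which binds trimethylated H3K4 through its PHD finger, was at 40.0, 40.5 and 41.3 FPKM in shTDP43, against 37.3, 36.3 and 37.8 FPKM in shNC libraries. It rose to 109% (0.12, adjusted p = 0.00778), with an adjusted p of 0.0649 without both libraries low in SNORD3A. SETD3 (chr14:99397748-99486458), known as the histidine methyltransferase of actin, was at 28.9, 25.5 and 27.3 FPKM in shTDP43, against 31.8, 30.8 and 30.2 FPKM in shNC libraries. It fell to 88.1% (−0.18, SE 0.05, adjusted p = 0.0156), with shTDP43 library 2 the lowest of the 6. Without shNC library 1 its adjusted p was 0.0536. SETD5 was at 96.4% and did not pass (adjusted p = 0.144).

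By role, 8 of 18 writers rose (44.4%) and 2 fell (11.1%). Of 17 erasers, 10 rose (58.8%) and 1 fell (5.88%), against 18.5% and 19.6% of all tested genes. Without 1 library the rises were 5 to 7 of 18 writers and 3 to 7 of 17 erasers, lowest for erasers without shTDP43 library 2 (3, against 5 writers) and 3 for each role without both libraries low in SNORD3A, so the order of the roles was not stable. Summed levels of writers were 425 ± 4.85 FPKM in shTDP43 and 408 ± 4.24 FPKM in shNC cells (SD, n = 3 each). Those of erasers were 414 ± 3.64 FPKM in shTDP43 and 386 ± 3.24 FPKM in shNC cells (SD, n = 3 each). Writers and erasers of the same lysine rose side by side for H3K4. Among 20 other lysine methyltransferase and demethylase genes, 1 rose (5.0%) and 4 fell (20.0%), against 18.5% and 19.6% of all tested genes, and 13 of the 20 differences were positive. KDM7A, a relative of PHF2 and PHF8, rose to 121% (adjusted p = 0.0026). The histone and ribosomal hydroxylase MINA fell to 83.8% (adjusted p = 0.00495), and SMYD3 and SETD9 each fell to 88.1%. SMYD2, the highest in that list, was at 101% and did not pass. Without 1 library, 3 to 5 genes fell and 1 or 2 rose.

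HOX genes, whose expression in development is set by MLL and Polycomb complexes, were counted as classical targets. Of 39 HOX genes, 12 were tested, and 21 of the others were at 0 in all 6 libraries. Of the 12, 2 rose (16.7%) and 4 fell (33.3%), against 18.5% and 19.6% of all tested genes. All 4 falls were in the HOXD cluster, which held 8 of the 12. HOXD11 was at 2.95, 3.27 and 3.08 FPKM in shTDP43, against 6.11, 6.92 and 7.48 FPKM in shNC libraries, or 45.3% of shNC (−0.93, SE 0.07, adjusted p = 4.93e-05). The neighbouring HOXD10 was at 11.0, 10.5 and 10.7 FPKM in shTDP43, against 19.0, 16.7 and 17.6 FPKM in shNC libraries, or 60.4% (−0.68, SE 0.05, adjusted p = 2.86e-05). Both were lower in every shTDP43 library by far more than the spread within a group. HOXD13 fell to 67.3% (−0.40, adjusted p = 0.00639) and HOXD8 to 90.1% (−0.15, adjusted p = 0.00503). HOXD8 lost its call without both libraries low in SNORD3A (0.0583). HOXD12 was listed at 0 in all shTDP43 libraries and at 0.152 to 0.302 FPKM in shNC libraries. Toward the other end of the cluster HOXD3 rose to 122% (0.26, adjusted p = 0.00621), HOXD1, the last gene, was at 116% (adjusted p = 0.233), HOXD4 was at 111% (adjusted p = 0.127), and HOXD9 was at 103% (adjusted p = 0.6). HOXC6 rose to 120% (adjusted p = 0.0264), and lost its call in 5 of 6 fits without 1 library. HOXD3 and HOXD4 overlap each other, as do HOXC4, HOXC5 and HOXC6. HOXD1 overlaps the long noncoding RNA HAGLR, at a mean of 12.8 FPKM against 1.62 FPKM for HOXD1. The levels of these HOX genes are therefore uncertain.

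**Figure D4:**
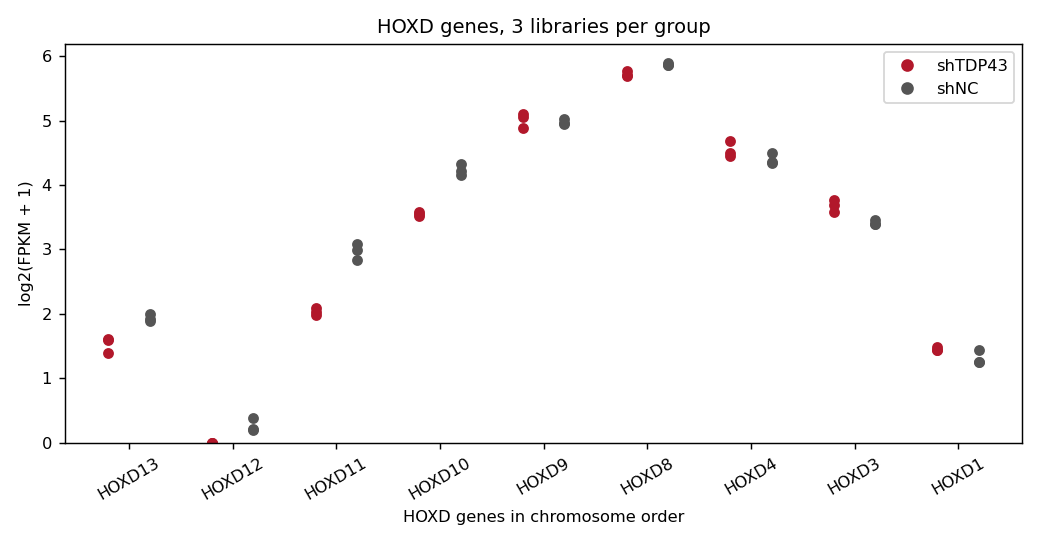
Levels of 9 HOXD genes as log2(FPKM + 1), 1 point per library, in chromosome order. The shTDP43 points of HOXD13, HOXD11, HOXD10 and HOXD8, and of the untested HOXD12, lie below the shNC points, and those of HOXD3 above them.

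The median gene length of the 38 genes was 86.5 kb, against 31.9 kb over tested protein-coding genes, although KDM6B, KMT2B and SETD1A are shorter than that, at 20.6, 20.9 and 26.9 kb. The share of protein-coding genes called higher was 11.4% for transcripts under 2000 bases, 18.4% from 2000 to 4000, 22.5% from 4000 to 6000, 25.0% from 6000 to 8000 and 26.1% from 8000 bases. It was thus higher for long transcripts, below the 50% of the 38 genes. Across the 38 genes Spearman's rho between transcript length and log2 difference was 0.18, and across 11904 protein-coding genes 0.09. These points share the same 6 libraries and are given without a test. After correction for transcript length and GC content, 21 of the 38 genes rose and 3 fell, with EZH1 losing its call. Of the 38 genes, 12 overlap another gene with a mean of at least 1 FPKM, among them SETD1B, KDM1A, WHSC1L1, ASH1L, KDM2B, KMT2E and SETD3. The sources used here do not give whether counting used strand, and reads of such pairs may not be separable.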

How the data were processed

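RNA was measured in 3 shTDP43 and 3 shNC libraries of SH-SY5Y cells. The authors deposited FPKM per gene symbol. Poly(A) selection and a directional kit are named per the labels' protocols. Per the submitters' processing notes, TopHat2 2.1.0, SAMtools and Cuffdiff 2.2.1 were used with build hg38. Annotation, strand handling and library scaling were not given in the sources used here. The table holds no counts, so depth is unknown and no counting interval is given.

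The 13263 genes whose mean reached 1 FPKM were tested. Values were analysed as log2(FPKM + 1) with limma 3.58.1 in R 4.3.3. The model had group as its only term, with a variance trend, two-sided tests and Benjamini-Hochberg adjustment over all tested genes. Differences on this scale understate changes of low genes, so percentages are ratios of mean FPKM. The test was tried on simulated data with known changes, and the outcome is not reported here. A gene that did not pass the test was not shown to be unchanged. In any pair of libraries at most 0.0905% of the tested genes had exactly the same value, with no tolerance.

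The 38 genes, the partner, HOX and marker lists, and the tests were chosen with earlier results of these data known. Named were TARDBP, all 38 genes and, from each list, up to 3 called genes with the largest difference and the gene with the highest mean. Some genes that this rule takes are not reported here. Other list genes named, and 3 ratios, were chosen after their values were seen. Locations and promoters came from RefSeq GRCh38.p14, transcripts from GENCODE 29. Of 26372 symbols, 23649 matched a current and 1559 an older RefSeq symbol. Alternatives were other pseudocounts (0.1, 0.01), no filter or a mean of at least 5 FPKM, quantile normalization, median centring, a replicate block, no variance trend, a length and GC correction, and leaving out libraries.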

Additional observations from a re-analysis of the deposited data

How the results depend on the processing

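Under 16 alternatives, 36 of the 38 genes kept their sign. Without 1 library SETD7 ran between −0.012 (without shTDP43 replicate 2) and 0.052, with −0.00099 without shNC replicate 1, and KDM4B ran between −0.0073 (without shNC replicate 2) and 0.12. When 1 library was left out, genes called over the whole table numbered 4025 to 4373, the 38 genes gave 9 to 15 rises and 2 to 4 falls, and their median log2 difference was 0.09 to 0.11. Without both libraries low in SNORD3A, 3322 genes were called, with 6 rises, 0 falls and a median of 0.10. That fit has 2 libraries a group, and why its counts were lower was not tested. The other alternatives kept the counts within 1.5 times, at 15 to 21 rises and 3 or 4 falls.

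Replicate numbers are shared by the groups, but deviations of same-numbered libraries correlated at −0.07, 0.06 and 0.11, so the numbers were not taken as pairs. With a replicate block, 15 of the 38 genes rose and 3 fell, and 4502 genes were called in all. With FPKM alone, the limits set by depth are unknown.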
